A study of Homo sapiens with 5 samples.

Results

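The mitochondrial ribosome is built from proteins encoded in the nucleus, and their genes carry the symbols MRPL for the large subunit and MRPS for the small subunit. All GENCODE protein-coding genes with MRPL or MRPS followed by a digit were taken, which gave 78 of 20033 protein-coding genes, 49 MRPL and 29 MRPS. For each gene, all MYC and HSF1 CUT&RUN peaks with any base within 1 kb of the start of an annotated transcript were collected. CUT&RUN cuts and sequences the DNA around an antibody-bound protein, and a peak is a region where fragments exceed those of an IgG control. The cells were OVCAR8, an established human ovarian carcinoma line of epithelial type, untreated and proliferating, and every group shared a 1 minute fixation in 1% formaldehyde. The labels gave 2 MYC libraries, 2 HSF1 libraries and 1 IgG control, with no word on separate cultures, so a difference between replicates may be technical.

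Mitoribosomes translate the messages of the mitochondrial genome, which code for subunits of the respiratory chain, so their nuclear genes link nuclear transcription to oxidative metabolism. MYC binds DNA together with MAX, prefers the E-box, and is known for occupying promoters of genes for ribosomes, nucleotide synthesis and mitochondria. HSF1 binds heat shock elements, runs of alternating GAA units, and is best known for driving chaperone genes. Promoters of nuclear genes for mitochondrial proteins are also known for sites of ETS factors (among them GABPA), YY1 and NRF1.

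Between 8265647 and 10084407 fragments remained in the antibody libraries after duplicates were removed, and 9306942 in the IgG library. The authors called peaks in each antibody library separately against that 1 IgG library. All 4 lists therefore share their control. The lists held 25646 and 13290 peaks for MYC replicates 1 and 2 at a p-value threshold of 1e-10, and 6477 and 4492 for HSF1 replicates 1 and 2 at 1e-04. No peak was identical between replicates. Since the thresholds and depths differed, levels were compared within a list, and a gene without a peak is one that was not called at that depth and threshold. The level used is the fold enrichment over the IgG background at the summit of the strongest peak of a gene, and the pileup is the number of fragments stacked at that summit, both as the authors deposited them.

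The sequences that carry the comparisons below are shown first, 5′ to 3′ along the gene, from RefSeq on GRCh38.p14, where 69 of the 78 genes had an entry. Each promoter runs from 250 bases before to 50 after the start. Capitals mark every match, on either strand, to the E-box CACGTG, an ETS core CCGGAAG, a YY1 core AAGATGGC, an NRF1 core TGCGCATGC, the 13-base heat shock element GAANNTTCNNGAA and, for the first 4 promoters only, a pair of opposed GAA units (GAANNTTC or TTCNNGAA). The first 4 genes, MRPL18 (chr6:159789562-159789861, plus strand), MRPS6 (chr21:34073328-34073627, plus strand), MRPL30 (chr2:99180934-99181233, plus strand) and MRPS18B (chr6:30617590-30617889, plus strand), are shown because they had an HSF1 peak in both lists.
MRPL18 promoter: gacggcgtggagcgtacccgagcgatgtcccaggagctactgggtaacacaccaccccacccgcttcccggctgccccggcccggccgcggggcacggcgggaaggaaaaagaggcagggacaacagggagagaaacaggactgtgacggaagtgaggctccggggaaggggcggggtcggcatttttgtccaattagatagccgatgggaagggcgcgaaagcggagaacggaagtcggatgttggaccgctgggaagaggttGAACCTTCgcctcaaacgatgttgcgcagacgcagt
MRPS6 promoter: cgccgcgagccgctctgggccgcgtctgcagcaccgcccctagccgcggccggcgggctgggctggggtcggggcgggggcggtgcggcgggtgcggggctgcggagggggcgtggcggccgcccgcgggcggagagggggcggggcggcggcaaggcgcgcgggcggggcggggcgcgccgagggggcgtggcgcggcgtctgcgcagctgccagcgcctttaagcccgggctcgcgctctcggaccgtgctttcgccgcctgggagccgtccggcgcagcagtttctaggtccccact
MRPL30 promoter: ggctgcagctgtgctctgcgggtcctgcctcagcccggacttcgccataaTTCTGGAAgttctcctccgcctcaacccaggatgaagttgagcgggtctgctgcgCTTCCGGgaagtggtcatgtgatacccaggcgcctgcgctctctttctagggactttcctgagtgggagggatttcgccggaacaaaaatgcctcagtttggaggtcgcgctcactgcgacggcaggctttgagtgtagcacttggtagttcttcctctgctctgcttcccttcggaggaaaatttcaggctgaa
MRPS18B promoter: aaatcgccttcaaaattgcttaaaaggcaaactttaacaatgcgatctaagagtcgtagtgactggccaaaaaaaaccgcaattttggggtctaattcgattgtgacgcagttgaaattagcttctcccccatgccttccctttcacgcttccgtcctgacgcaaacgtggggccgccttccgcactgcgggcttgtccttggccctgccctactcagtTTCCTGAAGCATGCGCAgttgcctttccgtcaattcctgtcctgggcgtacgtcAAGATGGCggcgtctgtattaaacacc

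Further GAA units in the HSF1 peaks of the genes with the highest HSF1 levels lay outside those windows, and were read from the reference on GRCh38, plus strand. At MRPL18 (chr6:159789828-159789935) a part of the peak was cut around a pair of opposed GAA units, marked in capitals. That stretch holds neither HSF1 summit. At MRPS6 (chr21:34073011-34073211, centred on the HSF1 replicate 2 summit) the capitals mark a complete heat shock element.
MRPL18 HSF1 peak: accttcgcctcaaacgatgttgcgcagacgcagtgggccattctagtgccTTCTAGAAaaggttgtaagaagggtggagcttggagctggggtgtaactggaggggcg
MRPS6 HSF1 peak: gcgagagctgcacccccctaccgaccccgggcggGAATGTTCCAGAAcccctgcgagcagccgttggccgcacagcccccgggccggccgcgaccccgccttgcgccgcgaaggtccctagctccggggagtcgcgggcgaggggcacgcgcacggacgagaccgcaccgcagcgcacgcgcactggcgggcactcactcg

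3 promoters, chosen after their values were seen, show the cores that were common among these genes. MRPS27 (chr5:72320191-72320490, minus strand) carried a MYC peak in both lists and a YY1 core, MRPS34 (chr16:1773085-1773384, minus strand) 3 ETS cores, and MRPL51 (chr12:6493213-6493512, minus strand) a heat shock element with no HSF1 peak nearby.
MRPS27 promoter: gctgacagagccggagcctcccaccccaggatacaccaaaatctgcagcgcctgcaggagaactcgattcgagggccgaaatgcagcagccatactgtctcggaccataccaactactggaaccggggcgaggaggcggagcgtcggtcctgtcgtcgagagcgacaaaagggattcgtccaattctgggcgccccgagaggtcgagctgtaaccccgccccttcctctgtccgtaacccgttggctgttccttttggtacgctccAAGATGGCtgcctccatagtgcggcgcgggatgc
MRPS34 promoter: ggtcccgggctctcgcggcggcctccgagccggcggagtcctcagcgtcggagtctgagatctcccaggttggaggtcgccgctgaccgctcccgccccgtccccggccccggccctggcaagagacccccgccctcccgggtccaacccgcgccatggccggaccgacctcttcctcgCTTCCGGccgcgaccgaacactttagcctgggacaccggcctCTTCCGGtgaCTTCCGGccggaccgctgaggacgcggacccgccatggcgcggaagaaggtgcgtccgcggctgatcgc
MRPL51 promoter: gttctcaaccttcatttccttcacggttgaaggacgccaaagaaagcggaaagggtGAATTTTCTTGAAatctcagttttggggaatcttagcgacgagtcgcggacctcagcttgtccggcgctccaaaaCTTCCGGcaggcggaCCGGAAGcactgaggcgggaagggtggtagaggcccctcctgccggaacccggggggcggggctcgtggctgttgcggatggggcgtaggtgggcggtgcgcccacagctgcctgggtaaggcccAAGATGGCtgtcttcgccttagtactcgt

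MYC peaks lay at most mitochondrial ribosomal protein genes. In MYC replicate 1, 67 of the 78 genes (85.9%) had a peak, beside 55.3% of all protein-coding genes. In MYC replicate 2, 53 of the 78 (67.95%) had one, beside 41.2% of all protein-coding genes. Both MYC lists held a peak at 51 of the 78 genes (65.4%), beside 40.1% of all protein-coding genes. At least 1 list did at 69 (88.5%), beside 56.4%. The share at these genes was thus above that of all genes in each list on its own, and the number of genes moved with the list more than it did between the subunits. No test was made over the genes, since the libraries are the replicates and a gene list is not.

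The genes were unevenly placed beside related groups. Of 87 genes for cytosolic ribosomal proteins, 78 had a MYC peak in each list and 76 (87.4%) in both. Of 39 NDUF genes, named for subunits of respiratory complex I, 29 had a MYC peak in replicate 1, 18 in replicate 2 and 17 (43.6%) in both. The mitochondrial ribosome therefore sat between the cytosolic ribosome and complex I in the share of genes with MYC in both lists, and the drop from replicate 1 to replicate 2 appeared in both mitochondrial groups, as over all genes, and not in the cytosolic ribosome.

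**Figure D1:**
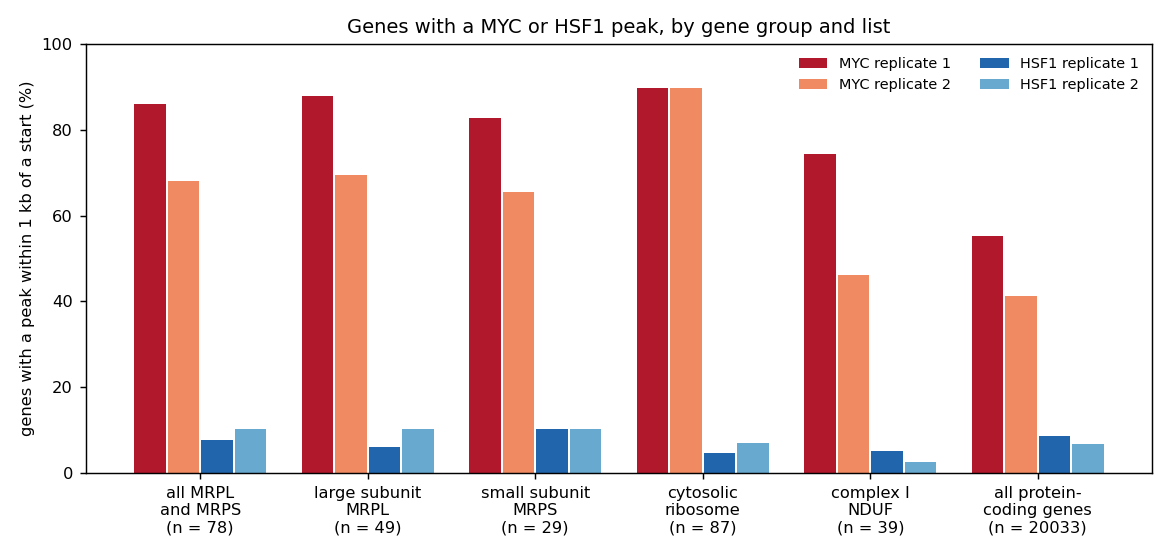
Bars give the percentage of genes with a peak within 1 kb of a start site (vertical axis) in each of the 4 lists for 6 gene groups, with the number of genes under each group. MYC reached 85.9% and 67.95% of the 78 mitochondrial ribosomal protein genes, against 55.3% and 41.2% of all protein-coding genes, while HSF1 stayed near 10% or below in every group.

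Large and small subunit genes were bound by MYC at similar rates. Of the 49 MRPL genes, 43 (87.8%) had a peak in MYC replicate 1, 34 (69.4%) in replicate 2 and 33 (67.3%) in both. Of the 29 MRPS genes, 24 (82.8%) had one in replicate 1, 19 (65.5%) in replicate 2 and 18 (62.1%) in both. The large subunit was higher by a few points in each list, a gap smaller than that between the replicate lists. Symbols do not follow the structure everywhere: the MRPS30 and MRPS18A proteins sit in the large subunit. With those genes moved, the order turned over, to 64.7% of large and 66.7% of small subunit genes with MYC in both lists.

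Proteins inherited from the bacterial ribosome and proteins specific to mitochondria changed order between the lists. Of 46 genes with a bacterial counterpart, 31 (67.4%) had MYC in both lists, and of 30 mitochondria-specific genes 19 (63.3%) did. In MYC replicate 1, 28 of the 30 mitochondria-specific genes (93.3%) and 38 of the 46 others (82.6%) had a peak, and in replicate 2 the shares were 63.3% and 71.7%. MRPS18A and MRPS18B, paralogs of the bacterial-type MRPS18C, were kept apart from both classes, and MRPS18A had no MYC peak while MRPS18B had the highest mean level of all.

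The levels at these genes were those of an ordinary MYC-bound promoter. Over the 67 genes with a peak in MYC replicate 1 the median fold enrichment was 14.28 (range 6.844 to 41.24), beside a median of 14.63 over all protein-coding genes with a peak. Over the 53 genes in replicate 2 it was 12.03 (6.471 to 32.31), beside 11.69. The median pileup was 29 fragments in each list, beside 31 and 28 for all genes. Large and small subunit genes had medians of 13.47 and 14.56 in replicate 1 and of 11.75 and 13.81 in replicate 2. More of these genes were called, then, than of all genes, at levels close to the middle of the called genes.

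The strongest MYC peaks fell at 4 MRPS and 6 MRPL genes, named by their mean fold enrichment over both lists. MRPS18B, a small subunit protein of mitochondria, had a fold enrichment of 31.95 in replicate 1 and 32.31 in replicate 2, with pileups of 169 and 212 fragments, and its start lies beside that of PPP1R10, a nuclear regulatory subunit of protein phosphatase 1. No other mitochondrial ribosomal protein gene came near those pileups, and these peaks exceeded 97.8% and 99.3% of the peaks in their lists. MRPS27, a protein of the pentatricopeptide repeat family, had MYC peaks in both lists near annotated starts at 2 separate places, and its strongest peak fell at a different one in each list. At the promoter shown above, where it faces PTCD2, another gene of that family, the fold enrichment was 25.79 in replicate 1 and 21.42 in replicate 2, with pileups of 64 and 67. At the downstream start, whose replicate 1 summit lay 12297 bp from the replicate 2 summit of the promoter, it was 41.24 and 19.93, with pileups of 64 and 34. The rank of MRPS27 thus averages 41.24 and 21.42 from separate sites, and both sites were called in both lists. MRPS7, counterpart of a bacterial protein that nucleates the head of the small subunit, had 34.69 and 25.14 with pileups of 67 and 58. These 3 genes had the highest mean levels.

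Among the large subunit genes, MRPL48 had fold enrichments of 35.17 and 14.02, with pileups of 82 and 51, and was the least even of the 10. MRPL3, an early-assembling protein at the core of the subunit, had 26.31 and 20.36. MRPL27, which reaches into the peptidyl transferase centre in bacteria, had 25.88 and 20.36 at a start it shares with EME1, a subunit of a structure-specific endonuclease. The small subunit gene MRPS34 had 21.47 and 23.34 and lies beside EME2, a gene related to EME1. Both of these ribosomal protein genes thus share a promoter with a DNA repair gene of 1 family.

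MRPL15 had 25.3 and 18.63, MRPL4 had 22.55 and 19.43, and MRPL58 had 24.02 and 17.83. MRPL58 is a peptidyl-tRNA hydrolase that became part of the large subunit. All of these genes were above their list's median for mitochondrial ribosomal protein genes in both lists. MRPL15 lies on chromosome 8, as do MRPL13 (12.01 and 11.05) and MRPS28 (23.88 and 13.81). All 3 genes of that chromosome had MYC in both lists, beside 65.4% of the 78 genes and 40.1% of all protein-coding genes. Copy number in these cells was not examined, and its part in these values was not tested.

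**Figure D2:**
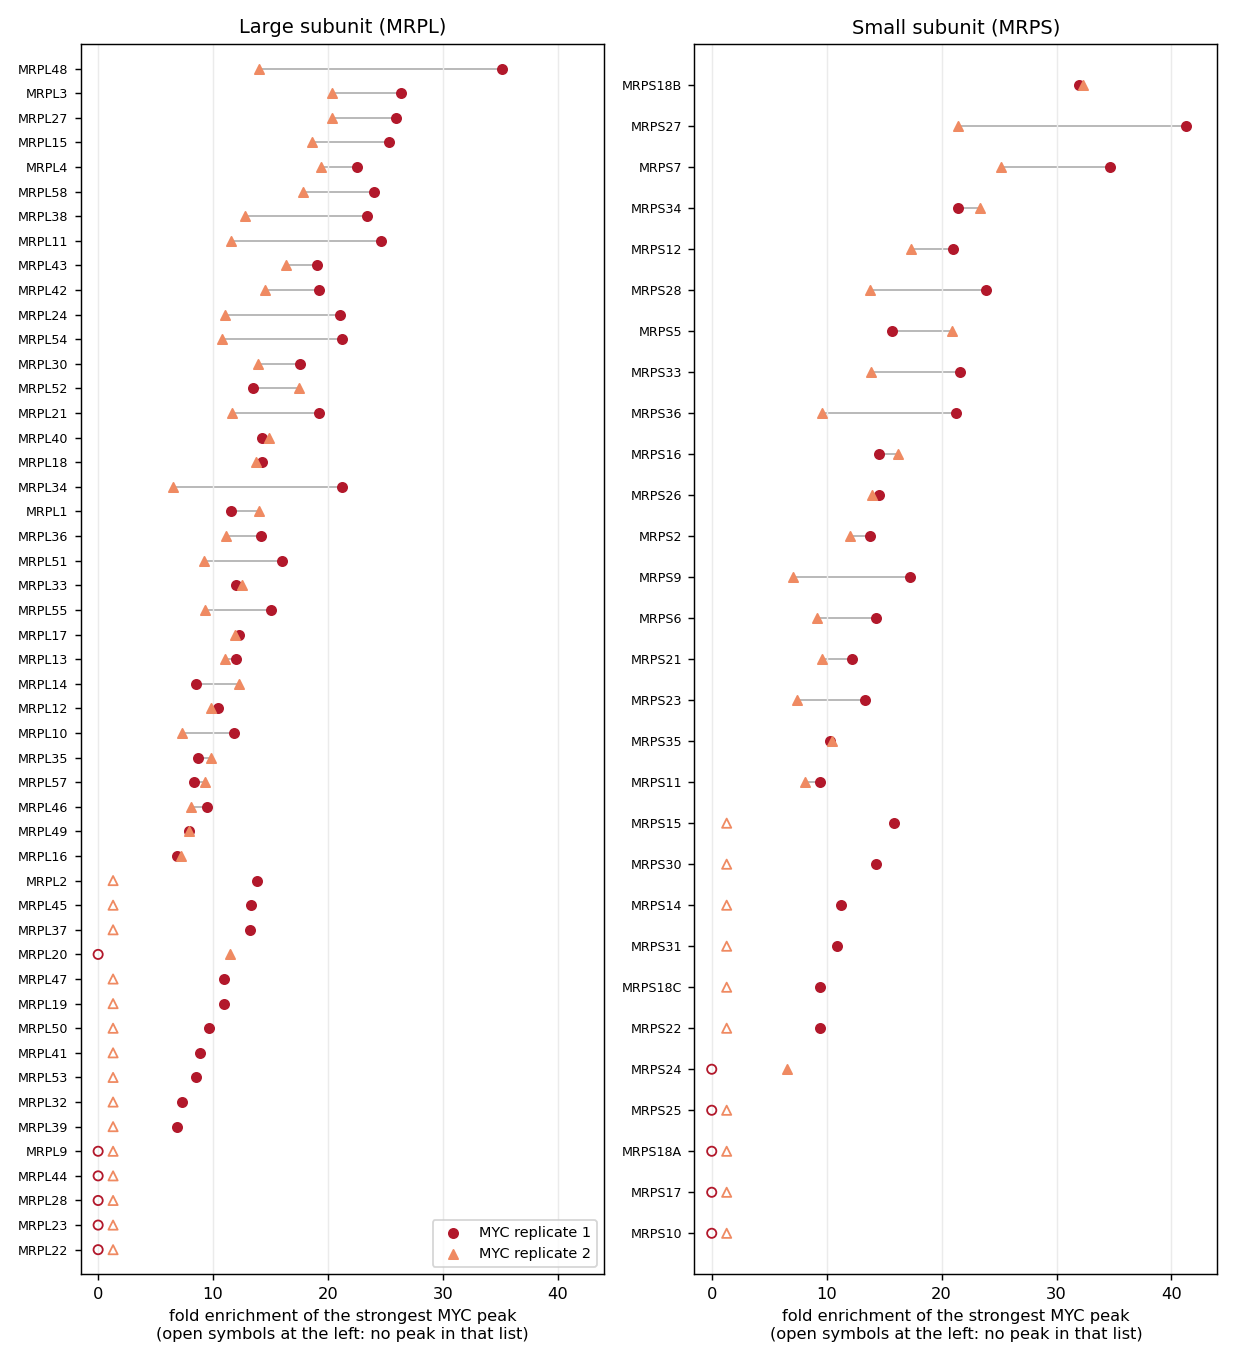
Each row is 1 gene, ordered within its subunit by mean level, and the horizontal axis gives the fold enrichment of its strongest MYC peak (no unit) in replicate 1 (circles) and replicate 2 (triangles), with a grey line between them; open symbols at the left mark a gene with no peak in that list. MRPS18B, MRPS27 and MRPS7 led the small subunit and MRPL48 the large, and no gene called in 1 list only exceeded 15.89.

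Replicates agreed in part over the 51 genes called in both MYC lists. Across these genes the log2 fold enrichments of the replicates had a Pearson correlation of 0.629 and a Spearman correlation of 0.610, a description over genes that share their libraries and their IgG control, beside 0.591 and 0.560 over the 8024 protein-coding genes called in both. Replicate 1 was higher at 38 of the 51, with a median ratio of replicate 1 to replicate 2 of 1.26 and a range from 0.694 to 3.27. The widest ratio was that of MRPL34, with 21.19 in replicate 1 and 6.471 in replicate 2. Summits moved little, with a median gap of 62 bp between replicates and 33 of 51 within 100 bp. The strongest peaks of the replicates overlapped at 49 of the 51 genes, all but MRPL57 and MRPS27.

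18 genes (23.1%) had a MYC peak in 1 list only, beside 16.4% of all protein-coding genes, and 16 of the 18 had it in replicate 1. In the large subunit these were MRPL2, MRPL19, MRPL32, MRPL37, MRPL39, MRPL41, MRPL45, MRPL47, MRPL50 and MRPL53, and in the small subunit MRPS14, MRPS15, MRPS18C, MRPS22, MRPS30 and MRPS31. MRPL20 (11.48) and MRPS24 (6.587) were called in replicate 2 only. The 16 genes had a median fold enrichment of 10.91 in replicate 1 (6.885 to 15.89), below the 15.69 of the genes called in both lists. Their median −log10 p-value was 19.1 against 40.25. Most of the difference between the lists thus concerned peaks of lower level, as it did over all genes, where those called in replicate 1 alone also had a median of 10.91.

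9 of the 78 genes had no MYC peak within 1 kb of a start in either list, beside 8732 of all 20033 protein-coding genes. They were MRPL9, MRPL22, MRPL23, MRPL28, MRPL44, MRPS10, MRPS17, MRPS18A and MRPS25. MRPL22, whose bacterial counterpart lines the peptide exit tunnel, was nearest to the limit, with MYC peaks 2576 bp and 2583 bp from its start in replicates 1 and 2. The peak farthest inside in replicate 1, at MRPL39, lay 724 bp from a start, and in replicate 2 the farthest, at MRPS23, lay 201 bp away. MRPL23 had its nearest MYC peak 83603 bp away. The call at MRPL39 thus depended on the window, and within 500 bp the replicate 1 count was 66. In replicate 2 the count within 500 bp stayed at 53.

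MYC summits clustered at the starts of these genes. In replicate 1 the MYC peak covered a start site at 59 of the 67 genes and in replicate 2 at 40 of the 53. The strongest summit lay within 250 bp of a start at 58 of 67 genes (86.6%) in replicate 1 and at 42 of 53 (79.2%) in replicate 2, beside 75.05% and 70.84% over all protein-coding genes with a peak. The median position was 10 bp and 24 bp downstream of the start. In the large subunit the median lay 51 bp and 88 bp downstream and in the small subunit 69.5 bp and 90 bp upstream. The medians over all protein-coding genes with a peak were -52 bp and 7 bp, with negative upstream. The quartiles of the subunits overlapped in both lists. In replicate 1 they ran from -85.5 to 103.5 bp for MRPL and from -180.2 to 58.5 bp for MRPS. Both lists largely covered the same genes, so their shared direction is not separate support for a subunit difference. Peaks were a little narrower than elsewhere, with median widths of 579 bp and 490 bp against 644 bp and 563 bp.

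**Figure D3:**
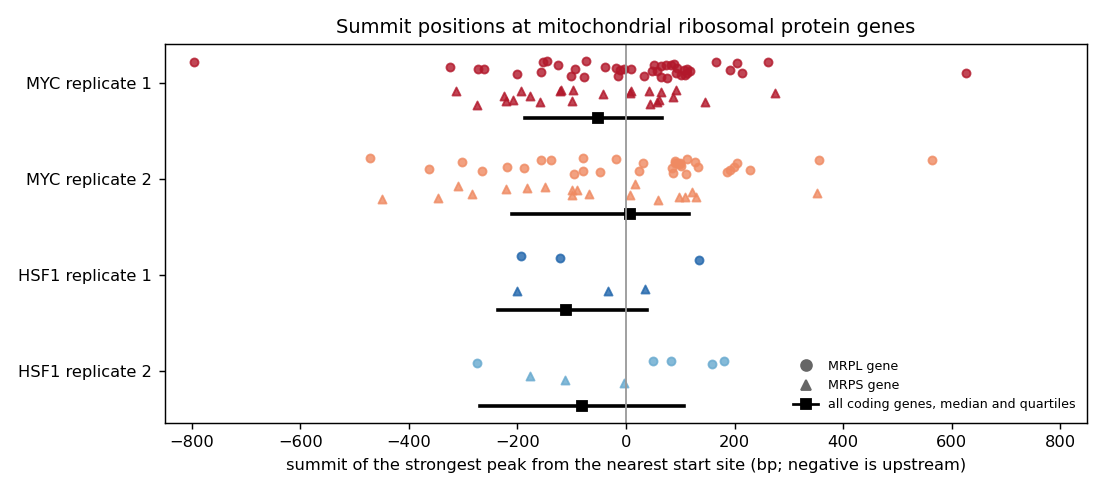
The horizontal axis gives the distance in bp of the strongest summit from the nearest start site along the gene (negative is upstream) in each of the 4 lists; circles are MRPL genes, triangles MRPS genes, and black squares with bars the median and quartiles of all protein-coding genes with a peak. 58 of 67 summits in MYC replicate 1 and 42 of 53 in replicate 2 lay within 250 bp of the start.

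Many of these promoters serve a second gene. At 36 of the 78 genes (46.2%) another protein-coding gene started within 1 kb, against 23.3% of all protein-coding genes, and at 33 of the 36 such a neighbor ran on the opposite strand. Any annotated start counted, so a gene's peak need not lie at the start it shares, as with the downstream peak of MRPS27. A peak at a shared start cannot be given to either gene. Several neighbors are themselves mitochondrial: MRPS12 faces SARS2, the mitochondrial seryl-tRNA synthetase, MRPL43 faces TWNK, the mitochondrial DNA helicase, and MRPL36 and MRPL47 face the complex I genes NDUFS6 and NDUFB5. MRPL49 faces FAU, which encodes a protein of the cytosolic small subunit. MRPL46 and MRPS11 face each other, and the same MYC peak (9.433 in replicate 1 and 8.089 in replicate 2) counted for both, so the 67 genes of replicate 1 rested on 66 strongest peaks and the 53 of replicate 2 on 52.

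MYC was more frequent at shared than at unshared promoters. Of the 36 genes that shared a promoter with a coding gene, 34 had a MYC peak in replicate 1 and 27 (75%) in both lists. Of the 37 genes with an unshared promoter, 28 had one in replicate 1, 22 in replicate 2 and 20 (54.1%) in both. Over all protein-coding genes the corresponding shares were 60.6% at shared and 28.7% at unshared promoters. The share with MYC was thus above that of all genes in each of these classes, and the remaining 5 genes, which share a promoter with an lncRNA gene only, included MRPL3 and had MYC in both lists at 4.

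HSF1 peaks were few at these genes and close in number to the background. In HSF1 replicate 1, 6 of the 78 genes (7.69%) had a peak, beside 8.58% of all protein-coding genes. In HSF1 replicate 2, 8 of the 78 (10.3%) had one, beside 6.85%. Both HSF1 lists held a peak at 4 genes (5.13%), beside 3.49% of all protein-coding genes. At least 1 list did at 10 (12.8%), beside 11.9%. The count of genes is thus no result about this gene family, and 2 of the 4 were MRPL and 2 were MRPS genes. With either HSF1 library left out the count moved to 8 (without replicate 1) or 6 (without replicate 2).

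All HSF1 peaks at these genes overlapped a MYC peak of replicate 1. By replicate number, 6 genes had both factors in replicate 1, 61 had MYC alone, none had HSF1 alone and 11 had neither. In replicate 2, 7 had both factors, 46 had MYC alone, 24 had neither, and MRPL53 alone had HSF1 without MYC. HSF1 rarely occurred without MYC at any gene: of all protein-coding genes with HSF1, 95.3% also had MYC in replicate 1 and 85.6% in replicate 2. All 4 genes with HSF1 in both lists also had MYC in both lists, and all 4 shared their promoter with another protein-coding gene. Over all 699 protein-coding genes with HSF1 in both lists, 611 (87.4%) had MYC in both and 275 (39.3%) shared a promoter in this way, so the overlap with MYC was close to that of all genes.

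The highest HSF1 level was at MRPL18, which faces TCP1, a subunit of the cytosolic chaperonin. MRPL18 is a large subunit protein with a bacterial counterpart, and a second product of its message is known to join cytosolic ribosomes under heat shock. Its HSF1 fold enrichment was 13.93 in replicate 1 and 46.56 in replicate 2, with pileups of 43 and 111 fragments, above 97.2% and 99.6% of the peaks in those lists. The MYC values there were even, 14.28 in replicate 1 and 13.71 in replicate 2. The MYC summits lay 59 bp and 71 bp from the HSF1 replicate 1 summit. HSF1 was thus high in both lists, but its level in replicate 2 was more than 3 times that in replicate 1. No complete heat shock element lay in these peaks. The pair of GAA units TTCTAGAA, shown in capitals in the stretch cut from the MRPL18 peak, began at position 159789878 of chromosome 6. It was centred at -138 bp from the replicate 1 summit and -163 bp from the replicate 2 summit. Pairs of GAA units are common, and 11.4% of all promoters hold one. Of all protein-coding genes with an HSF1 peak in replicate 1, 20.3% had one within 100 bp of the summit, nearer than this pair at MRPL18.

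MRPS6, the counterpart of a bacterial protein that pairs with S18 in the small subunit, had HSF1 fold enrichments of 13.75 and 35.1 with pileups of 35 and 67, above 97.1% of the replicate 1 list. MYC had 14.28 and 9.142. SLC5A3, a myo-inositol transporter, starts within 1 kb on the same strand. As at MRPL18, HSF1 was higher in replicate 2. The MRPS6 peak is the single HSF1 peak of these genes with a complete heat shock element, GAATGTTCCAGAA at chr21:34073045-34073057, whose centre lay at -140 bp from the replicate 1 summit and -60 bp from the replicate 2 summit. A pair of GAA units lay nearer the replicate 1 summit, at 55 bp. Of all protein-coding genes with an HSF1 peak, 5.24% in replicate 1 and 3.35% in replicate 2 had such an element within 100 bp of the strongest summit. The MRPS6 element lay within that distance in replicate 2 only.

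MRPL30 and MRPS18B had smaller HSF1 peaks in both lists, those of MRPL30 above the middle of each list and those of MRPS18B near the bottom. MRPL30, a large subunit gene that faces MITD1, a gene of cytokinesis, had HSF1 fold enrichments of 5.632 and 5.669 with pileups of 10 and 9, above 64.97% and 58.7% of the peaks in those lists, and its MYC values were 17.58 and 13.89. MRPS18B had HSF1 values of 3.17 and 3.484 with pileups of 17 and 17, and MYC values of 31.95 and 32.31. The HSF1 values at MRPS18B exceeded only 4.79% of the peaks in the replicate 1 list, and its HSF1 summit there lay 43 bp and 51 bp from the MYC summits. The gene with the highest mean MYC level therefore had, in each HSF1 list, the lowest HSF1 fold enrichment of the genes with a peak. This did not hold for the pileup, where its 17 fragments exceeded the 10 and 9 of MRPL30.

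6 genes (7.69%, beside 8.45% of all protein-coding genes) had HSF1 in 1 list only, at fold enrichments of 3.614 to 6.734. In HSF1 replicate 1, MRPL24 had a fold enrichment of 6.734 (pileup 13) and MRPS28 had 4.297 (pileup 10). In HSF1 replicate 2, MRPL54 had 5.768 (pileup 11) and MRPL53 had 4.561. In the same list MRPL38 had 3.827 (pileup 10), and MRPS16 had 3.614 (pileup 6), the lowest of the 6. MRPL24 and MRPL54 lay above the median over all HSF1 peaks of their list, 4.997 in replicate 1 and 5.201 in replicate 2, and the other 4 below it. MYC was called in both lists at all of them but MRPL53, which had MYC in replicate 1 only (8.474).

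**Figure D4:**
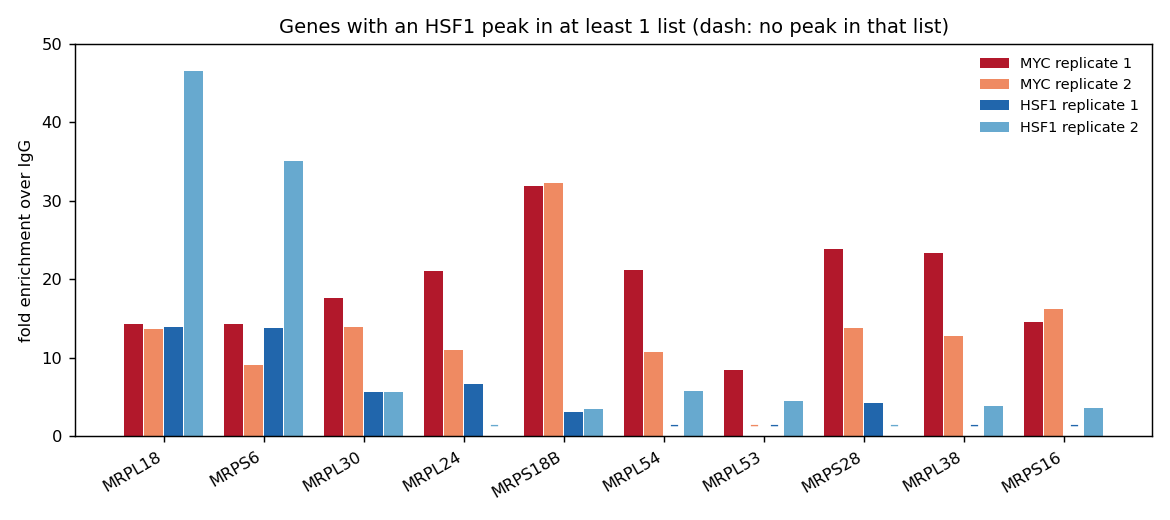
Bars give the fold enrichment over IgG (vertical axis, no unit) of the strongest peak in each of the 4 lists at the 10 genes with an HSF1 peak in at least 1 list; a dash marks no peak. HSF1 exceeded 13 only at MRPL18 and MRPS6, and at the other 8 genes it stayed at or below 6.734; bars of different factors come from lists called at different thresholds and are not compared.

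The E-box was not a common feature of these promoters. It was found in 6 of the 69 RefSeq promoters (8.70%), beside 8.89% of 15345 protein-coding promoters. Among the 44 promoters with MYC in both lists, 2 (4.55%) had an E-box, against 12.6% of all protein-coding promoters with MYC in both lists. Within 100 bp of the strongest MYC summit an E-box was found at 5 of 67 genes in replicate 1 (MRPL36, MRPS9, MRPS18C, MRPS33 and MRPS36) and at MRPS33 alone, 1 of 53, in replicate 2, beside 7.62% and 6.53% over all protein-coding genes with a peak. None of the 10 genes with the highest MYC levels had an E-box that close. An E-box lay elsewhere in the strongest peak at 6 of them, for example at -109 bp and -107 bp from the summits of MRPL27 and at 158 bp from both summits of MRPL3, along the reference strand. The variants CACGCG and CATGTG were in 14.5% and 5.80% of the promoters, beside 14.9% and 8.30% of all protein-coding promoters.

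ETS and YY1 cores were more frequent in these promoters than in all promoters. The promoters of MRPS27, MRPS34 and MRPL51, chosen after their values were seen, are examples of such cores only. The ETS core was in 29 of 69 promoters (42.0%), beside 14.4% of all protein-coding promoters. The YY1 core was in 20 of 69 (29.0%), beside 3.97%, and the NRF1 core in 5 of 69 (7.25%), beside 2.09%. At least 1 of these cores was in 42 of the 69 promoters (60.9%), against 18.98% of all. Promoters of cytosolic ribosomal protein genes held an ETS core in 32.9% and a YY1 core in 10%, so the YY1 core set the groups apart more than the ETS core did. The median GC content was 60.3% here, 59.3% in the cytosolic ribosomal group and 63% over all promoters, and its part in these shares was not tested. Close to the summits the cores were not common: within 100 bp of the strongest MYC summit the ETS core was found at 14.9% of these genes in replicate 1 and 3.77% in replicate 2, beside 9.21% and 6.43% of all protein-coding genes with a peak. The YY1 core was found there at 4.48% and 1.89%, beside 2.06% and 1.75%.

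The cores lay close to the start. The 21 YY1 matches had a median position of 9 bases after the start, and 16 of them lay within 50 bases of it, as in MRPS27 (16 bases after), MRPL51 (21) and MRPS18B (23). The 39 ETS matches had a median of 22 bases before the start. MRPS34 held 3 ETS cores in succession, the first at 71 bases and the last at 19 bases before its start. Over all protein-coding promoters the YY1 matches had nearly the same median, 10 bases after the start, and the ETS matches lay farther out, at a median of 45 bases before.

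Genes without a called MYC peak held these cores too. The YY1 core was in 22.7% of the promoters with MYC in both lists, in 41.2% of the 17 promoters with MYC in 1 list and in 37.5% of the 8 with MYC in none. The ETS core was in 45.5%, 35.3% and 37.5% of the same sets. A match of letters says nothing of whether a factor was bound, and no list for ETS factors, YY1 or NRF1 was analysed here.

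Heat shock elements and HSF1 peaks did not coincide in the RefSeq promoter windows. The window of MRPS6 begins downstream of the element in its HSF1 peak, so that element is not counted here. MRPL48 and MRPL51 alone had a complete heat shock element, 2 of 69 promoters (2.90%), beside 0.358% of all protein-coding promoters, and at MRPL48 the element GAAGCTTCCGGAA (chr11:73787807-73787819) overlaps an ETS core. Neither gene had an HSF1 peak in either list. The nearest HSF1 peaks of replicate 1 lay 8056 bp from MRPL48 and 121630 bp from MRPL51. Both genes had MYC in both lists, at 35.17 and 14.02 for MRPL48 and at 16.01 and 9.19 for MRPL51.

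**Figure D5:**
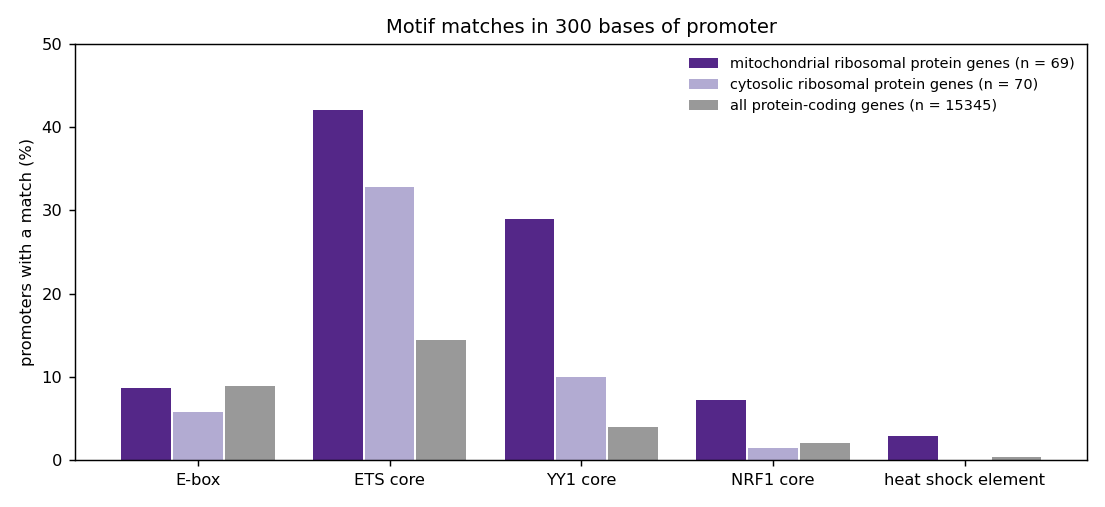
Bars give the percentage of RefSeq promoters (vertical axis; 250 bases before to 50 after the start) with at least 1 match on either strand to each motif (horizontal axis) in 3 gene groups. The ETS core (42.0%) and the YY1 core (29.0%) exceeded their shares in all protein-coding promoters (14.4% and 3.97%), while the E-box (8.70%) was level with its own (8.89%).

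Other genes of mitochondrial translation were also often called for MYC. Of 36 genes for further mitoribosomal proteins, translation factors, assembly factors and mitochondrial transcription, 34 (94.4%) had a MYC peak in replicate 1, beside 55.3% of all protein-coding genes. In replicate 2 there were 26 (72.2%), beside 41.2%, and the same number in both lists, beside 40.1%. MRM1, a methyltransferase of the large ribosomal RNA, had the highest level, 27.56 in replicate 1 and 23.52 in replicate 2. DAP3, a GTP-binding protein of the small subunit, had 21.71 and 13.46. TUFM, the elongation factor that delivers aminoacyl-tRNA, had 7.205 in replicate 1 and no peak in replicate 2. MTRF1, a release factor, and MTERF4, an assembly factor, had no MYC peak in either list.

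HSF1 reached 4 of these 36 genes (11.1%) in each list, beside 8.58% and 6.85% of all protein-coding genes, and 2 (5.56%) in both, beside 3.49%. POLRMT, the mitochondrial RNA polymerase, had HSF1 values of 13.12 and 8.776 beside MYC values of 17.95 and 12.22. TFB1M, which methylates the small ribosomal RNA, had HSF1 values of 5.632 and 6.491 beside 21.61 and 12.95 for MYC. TFAM, the DNA-packaging factor of mitochondria, had HSF1 in replicate 1 only (4.19) and MYC in both lists (20.17 and 13.17). Both genes with HSF1 in both lists had MYC in both.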

How the data were processed

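The analysis started from deposited CUT&RUN peak lists of OVCAR8 cells. Per the file headers and the methods, the authors aligned reads to GRCh38/hg38 with Bowtie 2 and called each antibody library with MACS 2.2.9.1 against 1 IgG library, which the headers number 2 and the labels leave unnumbered. The larger library was scaled to the smaller and duplicate fragments were kept once. The authors deposited, for each peak, the pileup signal, the −log10 p-value, the fold enrichment (a ratio to the local IgG background) and 1-based coordinates. These values were taken as they stand. They are not counts of reads, and no test was run. The q-value column was not used.

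Genes and start sites came from GENCODE 44, promoters from RefSeq on GRCh38.p14. RefSeq promoters were not found for MRPL2, MRPL10, MRPL13, MRPL15, MRPL21, MRPL23, MRPL35, MRPS28 and MRPS36. The assignment of peaks to genes was tested on simulated data. Python 3.11.15, pandas 2.3.3, numpy 2.4.6, scipy 1.17.1 and matplotlib 3.10.9 were used. The genes, lists and motifs were chosen with earlier results of these data known. Values in every list are given for the 10 genes of highest mean MYC level, the genes with HSF1 in both lists and the 5 highest with HSF1 in 1 list. MRPS16, MRPL34, the paired neighbors, the pathway genes named and the genes with motifs were chosen after their values were seen. E-boxes near the summits were to choose the MYC promoters printed, and no gene met that rule. The alternatives changed the window, the start sites, the p-value threshold, shared promoters, the subunit of MRPS30 and MRPS18A and the combination of replicates, and left out each library.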

Additional observations from a re-analysis of the deposited data

How the results depend on the processing

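14 alternatives gave 83 values, of which 66 stayed within 1.5 times the values reported. Counting genes with unshared promoters only left MYC at 28 genes in replicate 1, 22 in replicate 2 and 20 in both. HSF1 was left at 2, 2 and 0, with 0 genes for both factors. Fewer genes were counted, 37 of the 78, and the shares were lower too. MYC in both lists was at 54.1% of the 37 against 65.4% of the 78, and HSF1 in both at 0% against 5.13%. With −log10 p-value minimums of 20 for MYC and 10 for HSF1, HSF1 stayed at 3 genes in replicate 1, 2 in replicate 2 and 2 in both, with 1 gene for both factors in both lists. The small subunit share with MYC in both lists was then 37.9% and the large subunit share 46.9%. The share of all 78 genes was 43.6%, beside 28.3% of all protein-coding genes. A peak in either replicate gave 10 genes for HSF1 and 10 for both factors. Leaving out 1 library at a time gave 6 to 8 genes with HSF1 and 4 to 7 with both factors. It gave 53 to 67 genes with MYC. The higher of each HSF1 range came without HSF1 replicate 1. With 2 GAA units in place of 3, an alternative chosen after seeing the data, 2 genes with HSF1 in both lists had an element within 100 bp of a summit, against 1. No paired analysis was possible because the results come from no test. With 2 libraries a factor and 1 IgG library, a peak that was not called is not shown to be absent, and the levels carry the error of a single control.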
